A study of Homo sapiens with 12 samples.

Results

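Creatine kinases, myoglobin and the carriers that shuttle ATP out of mitochondria were followed in human cardiomyocytes given endothelin-1, the neprilysin inhibitor sacubitrilat, or both. The set holds 9 genes, listed by symbol for their roles in energy transfer between mitochondria and sarcomeres: CKM, CKB and CKMT2 (creatine kinases), MB (myoglobin), AK1 (an adenylate kinase), SLC25A4 and SLC25A5 (adenine nucleotide translocases), SLC25A3 (the phosphate carrier) and VDAC1 (an outer membrane channel). All 9 were among the 11203 genes tested, of 78894 genes in the table.

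The cells were cardiomyocytes differentiated from WTC-mEGFP-ACTN2-cl85, 1 clone of an established induced pluripotent stem cell line whose ACTN2 gene carries a green fluorescent tag on 1 allele, and all groups share that tag. They had been enriched by lactate in glucose-free medium and then replated, and each group held 3 independently treated cultures. The groups were endothelin-1 plus sacubitrilat (10 nM and 16 µM), endothelin-1 alone (10 nM), sacubitrilat alone (16 µM) and DMSO vehicle, all for 48 h. RNA was read as 3′-end tags, about 1 tag per transcript, so counts relative to the library total (CPM) were compared between genes without division by gene length.

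Total counts were unequal: libraries given a single agent had 1268308 to 1953122 counts (n = 6), and those given vehicle or both agents had 80844 to 316932 (n = 6), so mean totals differed 10.1-fold. Endothelin-1 against sacubitrilat, and both agents against vehicle, compare libraries of like total. Every other pair of groups sets high totals against low ones, and there treatment and total cannot be told apart. A second description line on the 6 single-agent libraries names the other compound. Titles, library names and treatment labels set the groups used here. If that line were the true one, endothelin-1 and sacubitrilat would exchange places in every sentence below.

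The 10 cardiomyocyte markers had counts in every group. The 10 skeletal muscle markers listed summed to 3 counts with both agents, 8 with endothelin-1, 3 with sacubitrilat and 1 with vehicle. Among them MYOD1, MYOG and MYF5, which define skeletal muscle, were at 0 in all 12 libraries. Fibroblast markers summed to 1948 to 4430 CPM with both agents, 6726 to 7588 with endothelin-1, 6999 to 7310 with sacubitrilat and 1732 to 4952 with vehicle, so each group also held RNA of these genes.

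Creatine kinases pass the phosphate of ATP to creatine and back. CKMT2 does so in the mitochondrial intermembrane space, next to the translocases that exchange ADP for ATP, and CKM and CKB do so in the cytosol near myosin and the ion pumps, which closes a shuttle of phosphocreatine between ATP production and use. In developing heart CKB is prominent early, and CKM, CKMT2 and myoglobin are genes of mature muscle.

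The promoters of the 6 members that were higher with endothelin-1 than with sacubitrilat are shown first, because these genes were called in the same direction. The sequences are from RefSeq (GRCh38.p14), 120 bases up to the base before an annotated start, 5′ to 3′ on the strand of the gene. Capitals mark letters of a motif found by a search of both strands. The E-box, written CANNTG, is read by basic helix-loop-helix factors such as those of muscle. The half-site of the estrogen-related receptors, which drive oxidative genes, was searched as AAGGTCA. The motif of the cardiac GATA factors was searched as AGATAA, and the box bound by the general transcription machinery near many start sites was searched as TATAAA. The MEF2 box and the CArG box of serum response factor were searched too.
CKM (minus strand, chr19:45322876-45322995): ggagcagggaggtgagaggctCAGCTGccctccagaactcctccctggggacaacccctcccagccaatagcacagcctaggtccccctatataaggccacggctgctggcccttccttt
CKB (minus strand, chr14:103522831-103522950): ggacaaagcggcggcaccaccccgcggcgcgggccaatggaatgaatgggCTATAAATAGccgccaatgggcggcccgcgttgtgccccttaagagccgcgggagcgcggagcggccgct
CKMT2 (plus strand, chr5:81233202-81233321): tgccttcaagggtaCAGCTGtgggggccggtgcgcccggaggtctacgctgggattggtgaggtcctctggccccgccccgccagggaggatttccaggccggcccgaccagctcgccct
MB (minus strand, chr22:35623355-35623474): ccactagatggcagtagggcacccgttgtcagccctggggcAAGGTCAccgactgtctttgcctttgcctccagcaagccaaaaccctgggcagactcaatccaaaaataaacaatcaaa
SLC25A4 (plus strand, chr4:185143146-185143265): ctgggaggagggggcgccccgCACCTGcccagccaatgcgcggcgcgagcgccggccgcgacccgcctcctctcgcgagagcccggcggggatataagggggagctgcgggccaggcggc
AK1 (minus strand, chr9:127877676-127877795): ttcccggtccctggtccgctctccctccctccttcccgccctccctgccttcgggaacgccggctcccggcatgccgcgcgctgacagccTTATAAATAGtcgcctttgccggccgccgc

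Over the 250 bases before each start, the MEF2 box was in the windows of CKB and AK1, 2 of the 9 members, and in 2.81% of all 34943 promoter windows. In both it holds TATAAA, which 4 of the 9 members (CKB, AK1, CKMT2 and SLC25A5) and 10.8% of all windows had. AAGGTCA was in the MB window alone of the 9 windows searched and in 3.44% of all windows, 79 to 73 bases before the start used. An E-box was in 6 of 9 windows and in 61.8% of all, AGATAA in that of SLC25A4 and in 9.19%, and the CArG box in 0 of 9 and in 1.16%. RefSeq gave 3 windows for MB, 4 for VDAC1 and 2 for AK1. Only the window nearest the principal start of the GENCODE annotation was searched, while the shares count all windows. The starts used for CKB and CKM lay 281 and 102 bases from that principal start. A match is a description of letters and not a bound site.

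All 9 members had a higher mean CPM with endothelin-1 than with sacubitrilat, the comparison of like totals. A gene is called where its edgeR adjusted p, over all 11203 genes, was under 0.05. Endothelin-1 cultures were called higher for 6 of the 9 (CKM, CKB, CKMT2, MB, AK1 and SLC25A4) and lower for 0, against 6.44% and 4.78% of all genes tested. CKMT2 passed the filter on low counts, a cut of 12.6 CPM in at least 3 libraries, only through the endothelin-1 group, so its place among the tested genes was set by that group. Among the other 8 members, 5 were called higher. The median log2 fold change of the 9, CKMT2 included, was 0.70, against -0.01 over all genes. CPM ranges did not overlap for 8 of the 9, CKMT2 among them, all higher with endothelin-1. Over all genes 10.2% were higher and 25.6% lower without overlap.

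Cardiomyocyte and smooth muscle markers moved in the same comparison. The cardiomyocyte markers' summed level was 17694 to 18625 CPM with endothelin-1 and 12885 to 13459 with sacubitrilat, and 6 of 10 were called higher and 0 lower. Smooth muscle markers summed to 3617 to 3669 CPM with endothelin-1 and 2799 to 2890 with sacubitrilat, and 3 of 6 (ACTA2, MYH11 and MYLK) were called higher and 0 lower. Mitochondrially encoded genes took 20.1% to 20.2% of counts with endothelin-1 and 15.0% to 17.2% with sacubitrilat. The part of these in the member changes was not tested. In such bulk samples fewer cells of a type and less RNA per cell cannot be told apart.

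**Figure D1:**
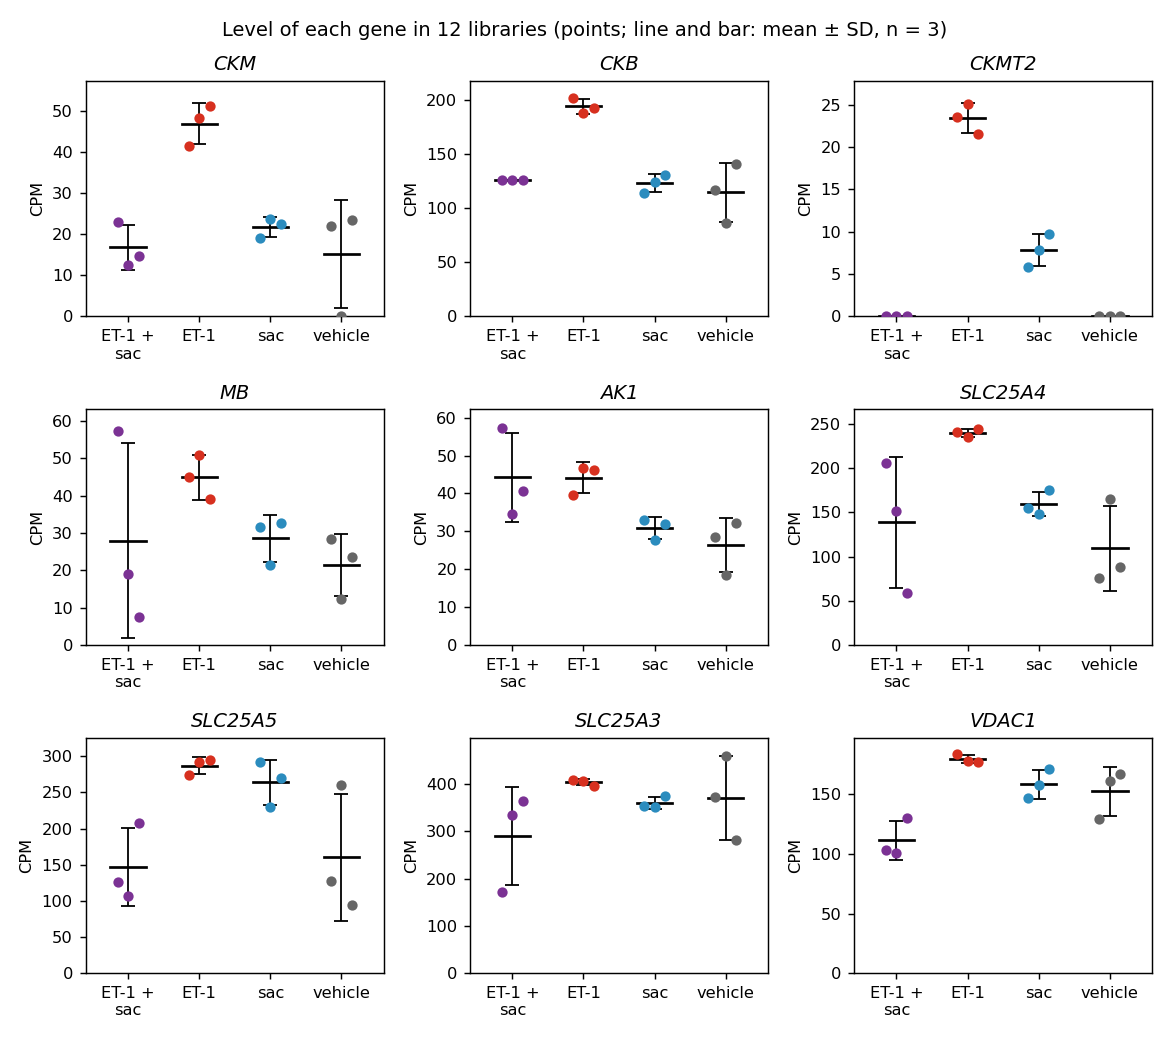
CPM of the 9 genes (vertical axes, each starting at 0) in every library, with the group mean and SD (n = 3). The endothelin-1 points are tight and high for CKM, CKB, CKMT2 and SLC25A4, and CKMT2 sits at 0 in all 6 combined and vehicle libraries.

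CKM is the muscle cytosolic creatine kinase (chromosome 19, 45306414 to 45322977, GRCh38). It had 22.9, 12.6 and 14.8 CPM with both agents, 41.3, 48.2 and 51.2 with endothelin-1, 19.1, 23.7 and 22.5 with sacubitrilat, and 22.1, 0 and 23.4 with vehicle. The 3 endothelin-1 libraries were above the other 9. The combined values rest on 2 counts in each library, and in vehicle replicate 2, where CKM was at 0, the limit of 3 counts is 37.1 CPM, so a level like that of the other vehicle libraries was not detectable there. CKM was 1.21 ± 0.18 higher with endothelin-1 than with sacubitrilat on the log2 scale (SE, edgeR adjusted p = 3.09e-06), a change above that of 99.1% of the genes tested.

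CKB, the brain-type cytosolic enzyme that also marks the early heart (chromosome 14, 103519659 to 103523111), had 126 CPM in each combined library. These equal values rest on 11, 20 and 17 counts, and the 95% counting interval of the group was 92.9 to 167 CPM. CKB had 202, 188 and 193 CPM with endothelin-1, 115, 125 and 131 with sacubitrilat, and 117, 86.6 and 141 with vehicle. Again the 3 endothelin-1 libraries stood above the other 9. The log2 fold change of endothelin-1 against sacubitrilat was 0.77 ± 0.11 (SE, edgeR adjusted p = 2.18e-06). CKB was the most counted creatine kinase in every group.

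CKMT2, the sarcomeric mitochondrial enzyme (chromosome 5, 81233285 to 81266397), was at 0 in the 3 combined libraries, at 23.6, 25.1 and 21.5 CPM with endothelin-1, at 5.88, 7.88 and 9.73 CPM with sacubitrilat, and at 0 in the 3 vehicle libraries. Its endothelin-1 and sacubitrilat libraries did not overlap, and it changed most of the 9: 1.63 ± 0.26 on the log2 scale (SE, edgeR adjusted p = 1.59e-05). CKMT2 passed the filter only through the endothelin-1 group, where it is high, so this call and rank are not independent of that group. The zeros are bounded by depth. At the endothelin-1 level the 3 vehicle libraries together would hold 13.3 counts and the 3 combined ones 8.88, and at the sacubitrilat level 4.59 and 3.08.

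CKMT2 shares its locus with an antisense gene, CKMT2-AS1, and the strand setting of the counting is not given, so their reads cannot be told apart with certainty. CKMT2-AS1 had 34.4, 18.9 and 51.9 CPM with both agents, 2.81, 3.39 and 5.23 with endothelin-1, 5.88, 6.31 and 8.19 with sacubitrilat, and 12.6, 37.1 and 11.7 with vehicle, on 73 counts in all. By CPM the antisense row was higher in the 6 libraries where the CKMT2 row was at 0 than in the others. That rests on 3, 3 and 7 counts in the combined libraries and 4, 3 and 2 in the vehicle ones. Most of these are at or near the limit of 3 counts.

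The share of CKM in CKM plus CKB counts was highest by mean where endothelin-1 was given alone. It was 11.7% ± 3.3 with both agents, 19.5% ± 2.1 with endothelin-1, 15.0% ± 0.87 with sacubitrilat and 10.1% ± 8.8 with vehicle (SD, n = 3 each). The muscle forms CKM and CKMT2 together made up 10.9% ± 3.1 of all creatine kinase counts with both agents, 26.3% ± 1.9 with endothelin-1, 18.9% ± 1.4 with sacubitrilat and 9.9% ± 8.6 with vehicle. In both shares the endothelin-1 and sacubitrilat libraries did not overlap (exact permutation p = 0.1, the smallest that 3 against 3 allows, and 0.291 after Benjamini-Hochberg adjustment over 32 tests of shares). The differences were 4.47 points for CKM and 7.43 for the muscle forms. With every library thinned to 80000 counts they were 2.76 and 3.55 points, at exact permutation p of 0.7 and 0.6.

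MB, the oxygen-binding protein of heart and slow muscle (chromosome 22, 35606764 to 35637951), had 57.3, 18.9 and 7.41 CPM with both agents, 44.9, 50.9 and 39.0 with endothelin-1, 31.6, 21.3 and 32.8 with sacubitrilat, and 28.4, 12.4 and 23.4 with vehicle. Its endothelin-1 libraries lay above all sacubitrilat and vehicle libraries, and the combined ones spread across the whole range. The log2 fold change of endothelin-1 against sacubitrilat was 0.73 ± 0.18 (SE, edgeR adjusted p = 0.00369), and limma-voom did not call it (adjusted p = 0.0724). None of the 9 other globins listed (CYGB, NGB and the haemoglobin chains) had enough counts to be tested.

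AK1, the cytosolic adenylate kinase that turns ADP into ATP and AMP (chromosome 9, 127866480 to 127877743), had 57.3, 34.6 and 40.8 CPM with both agents, 39.6, 46.8 and 46.2 with endothelin-1, 33.1, 27.6 and 32.0 with sacubitrilat, and 28.4, 18.6 and 32.2 with vehicle. The 6 libraries with endothelin-1 were all above the 6 without, but narrowly, at 34.6 CPM against 33.1. The share of all genes that separate this way is not given here. The combined values rest on 5, 5.5 and 5.5 counts and the vehicle values on 9, 1.5 and 5.5. With endothelin-1 against without, AK1 was not called (edgeR adjusted p = 0.24). AK1 was 0.62 ± 0.16 higher with endothelin-1 than with sacubitrilat on the log2 scale (SE, edgeR adjusted p = 0.00535), a call that limma-voom lost (adjusted p = 0.0544). Its locus overlaps a same-strand gene, AL157935.2, which took 361.5 counts over the 12 libraries, and the counting may split reads between them, so the AK1 level is uncertain.

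The mitochondrial adenylate kinases AK3 and AK4 were not called between endothelin-1 and sacubitrilat, with log2 fold changes of 0.09 ± 0.13 and 0.10 ± 0.14 (SE, edgeR).

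**Figure D2:**
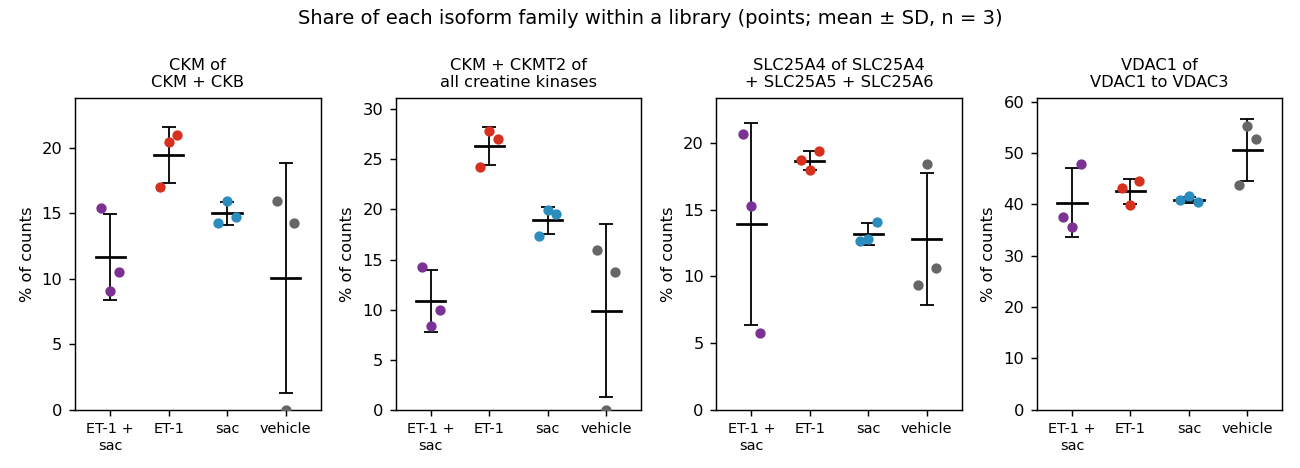
Share of each gene in the counts of its family (vertical axes, percent, each starting at 0) in every library, with the group mean and SD (n = 3). Endothelin-1 and sacubitrilat libraries lie apart for the muscle creatine kinases and SLC25A4, and overlap for VDAC1.

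SLC25A4, the translocase isoform of heart and muscle (chromosome 4, 185143241 to 185150382), had 206, 151 and 59.3 CPM with both agents, 241, 235 and 244 with endothelin-1, 155, 148 and 175 with sacubitrilat, and 75.7, 165 and 87.9 with vehicle. The endothelin-1 libraries were the 3 highest of the 12. Their log2 fold change against sacubitrilat was 0.70 ± 0.12 (SE, edgeR adjusted p = 3.24e-05). The isoforms of wider expression were not called: SLC25A5 differed by 0.23 ± 0.12 (SE, edgeR adjusted p = 0.232) and SLC25A6 by 0.07 ± 0.13 (SE, edgeR adjusted p = 0.819). SLC25A6 was counted separately for its X and Y chromosome copies, with reads split between them. This test left out a copy that the shares below include.

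SLC25A5 (chromosome X, 119468400 to 119471319) had 126, 107 and 207 CPM with both agents, 273, 292 and 295 with endothelin-1, 291, 229 and 270 with sacubitrilat, and 128, 260 and 93.8 with vehicle. SLC25A5, SLC25A3 and VDAC1 have processed pseudogenes between which reads could be split. The single-agent groups of SLC25A5 overlapped, and the vehicle libraries spread nearly as widely as the whole set. The share of SLC25A4 in SLC25A4, SLC25A5 and SLC25A6 was 13.9% ± 7.6 with both agents, 18.7% ± 0.71 with endothelin-1, 13.2% ± 0.80 with sacubitrilat and 12.8% ± 4.9 with vehicle (SD, n = 3 each). The single-agent groups did not overlap in this share (exact permutation p = 0.1, the smallest possible, 0.291 after adjustment).

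SLC25A3, which brings in phosphate for ATP synthesis (chromosome 12, 98593591 to 98606379), had 172, 334 and 363 CPM with both agents, 407, 406 and 396 with endothelin-1, 353, 351 and 374 with sacubitrilat, and 372, 458 and 281 with vehicle. It was the highest of the 9 by mean CPM in every group. Endothelin-1 exceeded sacubitrilat without overlap, by 0.28 ± 0.14 on the log2 scale, which did not pass the test (SE, edgeR adjusted p = 0.207).

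VDAC1, through which nucleotides cross the outer membrane (chromosome 5, 133971915 to 134005133), had 103, 101 and 130 CPM with both agents, 183, 178 and 176 with endothelin-1, 146, 158 and 171 with sacubitrilat, and 129, 161 and 167 with vehicle. The endothelin-1 libraries were again the 3 highest, with a log2 fold change of 0.29 ± 0.11 against sacubitrilat that did not pass the test (SE, edgeR adjusted p = 0.0743). VDAC1 made up 42.5% ± 2.4 of VDAC1 to VDAC3 counts with endothelin-1 and 40.9% ± 0.57 with sacubitrilat (SD, n = 3 each). In a fit of these 6 libraries alone, chosen after the data were seen, SLC25A5, SLC25A3 and VDAC1 were called too, at adjusted p of 0.0196, 0.00142 and 0.009, and so were 2024 genes in all.

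By level, the order with endothelin-1 was SLC25A3, SLC25A5, SLC25A4, CKB, VDAC1, CKM, MB, AK1 and CKMT2, on the CPM scale. Neighbours in that order lay apart except CKM, MB and AK1, whose libraries overlapped. With sacubitrilat SLC25A4 overlapped VDAC1, which stood above CKB, and AK1, MB and CKM followed. In the combined and vehicle libraries most neighbours overlapped.

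The 9 members summed to 1455 to 1471 CPM with endothelin-1 and 1092 to 1218 with sacubitrilat. The 3 creatine kinases alone summed to 261 to 266 CPM with endothelin-1 and 139.5 to 163 with sacubitrilat. The 4 membrane carriers and channels summed to 1104 to 1112 CPM with endothelin-1 and 887 to 990 with sacubitrilat.

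**Figure D3:**
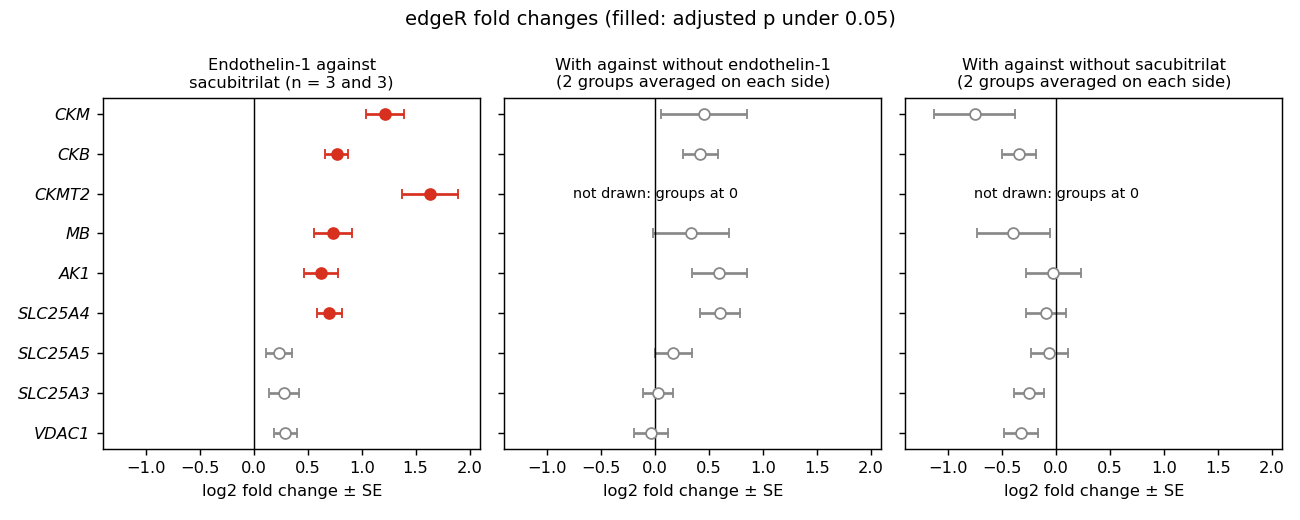
log2 fold change with its SE (horizontal axis, edgeR) for the 9 genes in 3 comparisons that are balanced for library totals; filled points had an adjusted p under 0.05. The 6 filled points are in the endothelin-1 against sacubitrilat panel, and the averaged panels hold 0. Among the 6 is CKMT2, which passed the filter only through the endothelin-1 group. CKMT2 is not drawn in the averaged panels, because it was at 0 in the combined and vehicle groups.

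Each averaged contrast of the factorial design holds a high-total and a low-total group on each side. With endothelin-1 against without, 0 of the 9 were called by edgeR, 3 had an unadjusted p under 0.05 (CKB, SLC25A4 and AK1), DESeq2 called 1 and limma-voom 0. Over all 11203 genes 1.83% were called, and 1661 had an unadjusted p under 0.05. SLC25A4 was 0.60 ± 0.19 higher (SE, adjusted p = 0.0776), AK1 0.60 ± 0.26 (adjusted p = 0.24) and CKB 0.42 ± 0.16 (adjusted p = 0.184), all edgeR. The SLC25A4 average joins opposite signs: 1.42 ± 0.23 against vehicle, and -0.21 ± 0.26 for both agents against sacubitrilat, which was not called. For AK1 these changes were 0.59 and 0.61, and for CKB 0.73 and 0.11. Each of these comparisons crosses the split in totals. DESeq2 called SLC25A4 (adjusted p = 0.00823), and edgeR called it without vehicle replicate 2 (0.0143) or without combined replicate 3 (0.0144), the lowest SLC25A4 library.

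With sacubitrilat against without, 0 of 9 were called by edgeR, DESeq2 or limma-voom, against 0.259% of all genes. An unadjusted p under 0.05 was found for 1133 of all 11203 genes and for 3 of the 9. These 3 were CKM, at -0.76 ± 0.38 on the log2 scale, CKB, at -0.35 ± 0.16, and VDAC1, at -0.32 ± 0.16 (SE, edgeR adjusted p = 0.492, 0.445 and 0.479). Their averages join unlike changes. Against vehicle sacubitrilat gave 0.09 for CKM, -0.03 for CKB and 0.05 for VDAC1. Both agents against endothelin-1 gave -1.60, -0.66 and -0.70 in that order. Each of these comparisons crosses the split in totals. Fold changes were below 0 for the 8 members with no group at 0, beside a median of -0.04 over all genes. For AK1 (-0.03 ± 0.25), SLC25A5 (-0.06 ± 0.17) and SLC25A4 (-0.09 ± 0.18) the SE exceeded the change.

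Both agents against vehicle, the other pair of like totals, gave 0 calls among the 9 by edgeR, DESeq2 or limma-voom, against 0.179% of all genes. An unadjusted p under 0.05 was found for 1297 of all 11203 genes and for 0 of the 9. AK1 was the 1 member whose libraries did not overlap, higher with both agents, where 4.94% of all genes were higher without overlap; its log2 fold change was 0.57 ± 0.48 (SE, edgeR adjusted p = 0.698). The SE of CKM was 0.74 and that of MB 0.67 on the log2 scale, beside their changes of 1.21 and 0.73 between the single agents.

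The primary comparisons of the series cross the split in totals. With endothelin-1 against vehicle 5 of 9 were called higher and 0 lower, against 11% and 12.2% of all genes, where the median log2 fold change was 0.10. SLC25A4 was 1.42 ± 0.23 higher (SE, edgeR adjusted p = 1.27e-05), SLC25A5 1.10 ± 0.21 (edgeR adjusted p = 1.58e-04), CKM 1.30 ± 0.40 (edgeR adjusted p = 0.0147) and CKB 0.73 ± 0.20 (edgeR adjusted p = 0.00566). CKMT2 was at least 4.42-fold higher, taking 3 counts over the vehicle group as the floor, and was called (edgeR adjusted p = 2.99e-04). It is among the 5 called, and it passed the filter only through the endothelin-1 group. Without vehicle replicate 2, the library with no CKM count, the CKM change was 1.00 and not called (edgeR adjusted p = 0.0669). MB was 0.89 ± 0.40 higher and not called (edgeR adjusted p = 0.0991), and SLC25A3, AK1 and VDAC1 were not called either. Marker lists moved in this comparison too: 7 of 10 cardiomyocyte, 5 of 7 tested fibroblast and 4 of 6 smooth muscle markers were called higher and 0 lower, and 5 of 5 tested endoderm and liver markers lower, with a median log2 fold change of -2.48. Endoderm and liver markers summed to 54.4 to 84.8 CPM with endothelin-1 and 194 to 643 with vehicle. Their part in the member changes was not tested.

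With both agents against endothelin-1, 6 of 9 were called lower and 0 higher, against 17.8% and 16.6% of all genes, whose median was -0.23. CKM changed by -1.60 ± 0.51 (SE, edgeR adjusted p = 0.0130), SLC25A5 by -1.0 ± 0.24 (0.00123), SLC25A4 by -0.91 ± 0.24 (0.00335), VDAC1 by -0.70 ± 0.24 (0.0191) and CKB by -0.66 ± 0.23 (0.0218). CKMT2 was at least 2.96-fold lower (edgeR adjusted p = 0.00145), with the floor of 3 counts over the combined group. It is among the 6 called, and it passed the filter only through the endothelin-1 group. AK1 differed by -0.02 ± 0.35, and MB by -0.95 ± 0.48 without a call (edgeR adjusted p = 0.120). Among markers, 6 of 10 cardiomyocyte, 6 of 7 fibroblast and 4 of 6 smooth muscle genes were called lower, 3 cardiomyocyte genes higher, and 4 of 5 endoderm and liver genes higher; their part was not tested.

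These calls rest on few counts in the combined libraries. CKB was not called without any 1 combined replicate (adjusted p = 0.102, 0.0721 and 0.0744 without replicates 1, 2 and 3), CKM was not called without replicate 2 (0.0851) or 3 (0.0604), VDAC1 without replicate 1 (0.113) or 2 (0.107), and SLC25A4 without replicate 3 (0.113). MB was called without replicate 1 (0.0457).

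Sacubitrilat against vehicle called 3 of 9 higher and 0 lower, against 8.68% and 11.2% of all genes. They were SLC25A5, at 0.87 ± 0.22 (SE, edgeR adjusted p = 0.00346), SLC25A4, at 0.72 ± 0.25 (0.0338), and CKMT2, at least 1.53-fold higher (0.0403). Without vehicle replicate 3 none of them was called, with adjusted p of 0.0670 for SLC25A5, 0.128 for SLC25A4 and 0.111 for CKMT2. SLC25A4 was also lost without vehicle replicate 1 or any 1 sacubitrilat replicate, and CKMT2 without vehicle replicate 1 or 2 or sacubitrilat replicate 2 or 3. Here 2 of 7 fibroblast and 2 of 6 smooth muscle markers were called higher, 5 of 5 endoderm and liver markers lower, and cardiomyocyte markers 3 higher and 2 lower, of 10.

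Both agents against sacubitrilat called 1 of 9, SLC25A5, lower by -0.76 ± 0.24 (SE, edgeR adjusted p = 0.0131), against 17.8% of all genes lower and 17.2% higher. That call was lost without combined replicate 1 (0.114) or 2 (0.155) or sacubitrilat replicate 1 (0.0737) or 3 (0.0536). AK1 was 0.61 ± 0.38 higher, without overlap as in 19.4% of all genes, and not called (edgeR adjusted p = 0.216). Markers called lower were 5 of 7 fibroblast, 2 of 6 smooth muscle and 3 of 10 cardiomyocyte genes, and 4 of 5 endoderm and liver and 3 cardiomyocyte genes were called higher. The comparisons with vehicle, with endothelin-1 and with sacubitrilat share those libraries. The difference of the endothelin-1 effects with and without sacubitrilat was called lower for 5 of 9 members and higher for 0, against 26.0% and 20.1% of all genes and 46.1% in either direction. That contrast sets the 6 low-total libraries against the 6 high-total ones, and the 2 cannot be told apart.

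Creatine itself is made by GATM and GAMT and taken up by SLC6A8, and of the 5 creatine supply genes listed 3 were tested. GAMT, the second enzyme of synthesis, had 1214, 498 and 259 CPM with both agents, 207, 202 and 183 with endothelin-1, 134, 142 and 144 with sacubitrilat, and 243, 606 and 322 with vehicle. All 6 low-total libraries were above the 6 others. Endoderm and liver markers lay the same way: they summed to 452 to 619 CPM with both agents, 54.4 to 84.8 with endothelin-1, 47.7 to 60.9 with sacubitrilat and 194 to 643 with vehicle, and their part in the GAMT level was not tested. GAMT was called higher with endothelin-1 than with sacubitrilat, by 0.61 ± 0.18 (SE, edgeR adjusted p = 0.0185), and with endothelin-1 against without, by 0.73 ± 0.16 (edgeR adjusted p = 0.0102). That average joins changes of opposite sign. GAMT was called lower with endothelin-1 than with vehicle (-0.69 ± 0.24, edgeR adjusted p = 0.0333). With both agents it was called higher than with sacubitrilat (2.15 ± 0.24, edgeR adjusted p = 8.48e-09). Each of these comparisons crosses the split in totals.

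SLC6A8, the creatine transporter, had 344, 151 and 88.9 CPM with both agents, 80.5, 67.5 and 93.6 with endothelin-1, 52.3, 58.5 and 50.6 with sacubitrilat, and 106, 186 and 98.2 with vehicle. It was higher with endothelin-1 than with sacubitrilat by 0.72 ± 0.16 (SE, edgeR adjusted p = 0.00149), and with endothelin-1 against without by 0.65 ± 0.18 (edgeR adjusted p = 0.0499). This average too joins opposite signs, from comparisons that cross the split in totals. Endothelin-1 against vehicle gave -0.49 ± 0.26, not called (edgeR adjusted p = 0.174). Both agents against sacubitrilat gave 1.78 ± 0.29 (edgeR adjusted p = 8.02e-06). GATM, the first enzyme of synthesis, had 0, 0 and 14.8 CPM with both agents, 19.6, 18.3 and 20.9 with endothelin-1, 24.2, 28.4 and 37.4 with sacubitrilat, and 12.6, 0 and 23.4 with vehicle, and was not called between endothelin-1 and sacubitrilat (-0.53 ± 0.21, SE, edgeR adjusted p = 0.109).

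**Figure D4:**
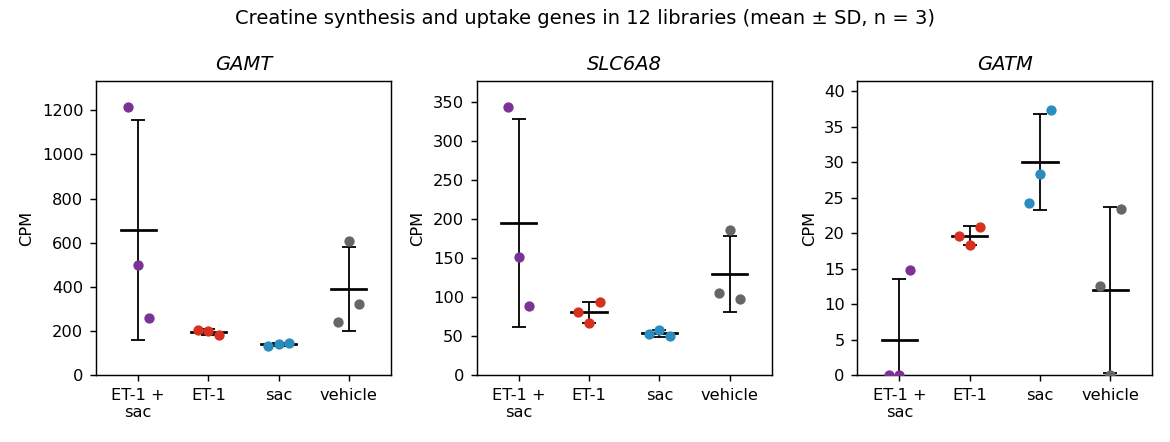
CPM of GAMT, SLC6A8 and GATM (vertical axes, each starting at 0) in every library, with the group mean and SD (n = 3). GAMT and SLC6A8 are higher with endothelin-1 than with sacubitrilat; the low-total combined and vehicle libraries spread widely, all above the single-agent ones for GAMT but overlapping endothelin-1 for SLC6A8, and GATM is low throughout.

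Genes on either side of the shuttle were counted the same way for endothelin-1 against sacubitrilat, where 6.44% of all genes tested were called higher and 4.78% lower. Of 18 ATP synthase subunits, all tested, 4 were called higher and 0 lower, with a median log2 fold change of 0.24, among them ATP5MC1 (0.54 ± 0.11, SE) and ATP5F1C (0.37 ± 0.10). Of 7 pump and myosin genes, which use ATP, 4 were called higher and 1 lower, with MYH7, the slow myosin heavy chain, whose reads the near-identical MYH6 may share, at 1.58 ± 0.25 and ATP1B1, a sodium pump subunit, at 0.75 ± 0.12. Of 9 other carriers and outer membrane genes tested, 2 were called higher and 0 lower: HK1, the hexokinase that docks on VDAC (0.77 ± 0.12), and PPIF, cyclophilin D of the inner membrane pore (0.47 ± 0.13). Of 8 tested adenylate and nucleoside diphosphate kinases, 1, NME3, was called higher (0.35 ± 0.11) and 0 lower.

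Of 16 tested regulators of oxidative muscle genes, 5 were called higher with endothelin-1 than with sacubitrilat and 0 lower, beside the same 6.44% and 4.78% of all genes. PPARGC1A, a coactivator of mitochondrial genes, was 1.10 ± 0.22 higher on the log2 scale (SE, edgeR adjusted p = 3.77e-04). PRKAB2 and PRKAA2, subunits of the AMP-activated kinase, were 0.77 ± 0.14 and 0.47 ± 0.12 higher, and MEF2A, a factor of the MEF2 box, 0.42 ± 0.11. With endothelin-1 against without, 1 of the pump and myosin genes (MYH7, 1.33 ± 0.18) and 1 of the kinases (NME3, 0.63 ± 0.16) were called, and 0 ATP synthase, carrier or regulator genes.

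Likeness across the 12 libraries was measured as Pearson's r of log2(CPM + 1) among 1843 genes with at least 5 counts in every library, which CKM, CKMT2, MB and AK1 did not reach. The libraries share their totals and treatment, so r is a description. The most alike gene was IGFBP7 for CKB (r = 0.91), MRPL4 for SLC25A4 (0.88), SUPT5H for SLC25A5 (0.94), FN1 for SLC25A3 (0.93) and GAS5 for VDAC1 (0.93).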

How the data were processed

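The members and gene lists were chosen with earlier results of these data known. Stranded single-end 3′-end libraries were primed with poly(dT) carrying a unique molecular identifier, per the labels' protocols; fastp 0.24.0, featureCounts and GRCh38 are named in the submitters' processing notes. For the aligner, annotation, strand setting and use of the identifiers, nothing is given in the sources used here.

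The authors deposited estimated counts per gene, which are not all whole because shared reads were split, and CPM, which equal count over library total. Of 78986 features 92 spike-in rows, all at 0, were left out. Counts were rounded and tested with edgeR 4.0.16 (quasi-likelihood, TMM, filterByExpr, 1 fit of all 12 libraries by group, R 4.3.3), with Benjamini-Hochberg adjustment over 11203 genes; SE is the log2 fold change over the root of F. No block was used: same-numbered libraries had deviations with r from -0.146 to 0.0396. Shares were tested by exact two-sided permutation over libraries; 1 family is not reported here. The named genes were the 9 members, up to 4 tested genes per list by smallest p, and the 3 genes most like each member. Alternatives were RLE scaling, no filter, DESeq2 1.42.0, limma-voom 3.58.1, a replicate block, thinning to 80000 counts, leaving out mitochondrially encoded genes or each library, and 2 added after the data were seen. The replicates were separate cultures, none duplicated. Intervals and floors cover counting error only.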

Additional observations from a re-analysis of the deposited data

Results flagged for a closer look

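For 5 of the 9 members the effect of endothelin-1 differed between cultures with and without sacubitrilat (edgeR interaction term, adjusted p under 0.05), while 46.1% of all genes tested did so, 26.0% downward and 20.1% upward, with a median of -0.43 on the log2 scale. This contrast sets the 6 low-total libraries against the 6 high-total ones, so treatment and total cannot be told apart. As log2 fold changes with their SE, SLC25A5 had -1.87 ± 0.32 (edgeR adjusted p = 1.10e-05), CKM -1.69 ± 0.70 (0.0459), SLC25A4 -1.62 ± 0.34 (2.05e-04) and VDAC1 -0.75 ± 0.31 (0.0421). The endothelin-1 cultures were the highest of the 4 groups by mean CPM in all 4 of these genes. CKMT2, at 0 in every combined and vehicle library, had an edgeR adjusted p of 1.74e-04 and no fold change that can be read. It passed the filter only through the endothelin-1 group. SLC25A5 kept its call in all 20 alternatives, CKMT2 in all 19 and SLC25A4 in 19 of 20, while CKM kept its call in 5 of 19 and VDAC1 in 5 of 20.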

How the results depend on the processing

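Of the alternative values for single members, 1348 kept their side of the threshold, 70 lost it, 25 gained it and 0 reversed a called direction. The cause was not tested, except that thinning to 80000 counts and leaving out libraries remove data. Thinning left 5 members and 1833 genes tested. It then called 0 members in each of endothelin-1 against vehicle (484 genes), both against endothelin-1 (772), sacubitrilat against vehicle (395), both against sacubitrilat (815) and endothelin-1 against sacubitrilat (8 genes); for the interaction 1 member and 930 genes, for both against vehicle 13 genes, and for the averaged effects of endothelin-1 and sacubitrilat 21 and 0 genes.

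Samples with the same replicate number were not paired. With the number as a block, 1 member and 1927 genes were called for sacubitrilat against vehicle. For the interaction 3 members and 4923 genes were called. The block gave 10 genes for both against vehicle, and 121 and 16 for the averaged effects of endothelin-1 and sacubitrilat. It changed no member call elsewhere. Without a filter 40745 genes were tested. Then 3 members and 5031 genes were called for both against sacubitrilat, and 8 members and 6569 genes for the interaction. The unfiltered fit called 62 genes for both against vehicle and 68 for averaged sacubitrilat. DESeq2 called 165 genes for both against vehicle, 758 for endothelin-1 against sacubitrilat (1257 in the reported fit), 334 and 100 for the averaged effects, and 1 member for averaged endothelin-1. Limma-voom called 10, 472 and 7 genes for both against vehicle, endothelin-1 against sacubitrilat and averaged sacubitrilat. It called 1 member and 2590 genes for sacubitrilat against vehicle, and 2 members and 4421 genes for both against sacubitrilat. Without mitochondrially encoded genes 3 members and 4876 of 10930 genes were called for the interaction. Added after the data were seen, leaving out the 2 libraries under 100000 counts gave 0 members and 3238 of 11203 genes for both against sacubitrilat. It gave 3 members and 4263 genes for the interaction, and 9 members and 1814 genes for endothelin-1 against sacubitrilat. It called 139 genes for both against vehicle, and 364 and 182 for the averaged effects of endothelin-1 and sacubitrilat. Also added then, a fit of the compared groups alone called 2024 genes for endothelin-1 against sacubitrilat and 3 for both against vehicle.

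Leaving out 1 library at a time, members called were 4 to 5 for endothelin-1 against vehicle (1746 to 2674 genes), 3 to 6 for both against endothelin-1 (2784 to 4014), 0 to 3 for sacubitrilat against vehicle (1390 to 2242), 0 to 1 for both against sacubitrilat (2817 to 4051), 0 for both against vehicle (7 to 196), 6 to 8 for endothelin-1 against sacubitrilat (818 to 1600), 0 to 1 for averaged endothelin-1 (103 to 541), 0 for averaged sacubitrilat (9 to 191) and 3 to 4 for the interaction (4357 to 5001). Share differences with against without sacubitrilat were -1.44 points for CKM (-4.39 to -0.20 without 1 library), -3.23 for the muscle forms (-6.85 to -1.29), -2.19 for SLC25A4 (-3.62 to -0.63) and -5.93 for VDAC1 (-7.39 to -4.18), and with against without endothelin-1, in the same gene order, 3.04 (0.53 to 4.33), 4.20 (1.32 to 6.26), 3.30 (2.42 to 5.41) and -4.35 (-5.65 to -2.44), at exact permutation p of 0.0866 or more in all libraries. Thinned, the endothelin-1 differences were 1.58, 1.90, 1.87 and -1.09 points. For sacubitrilat CKM passed an exact p of 0.05 without vehicle replicate 2 and VDAC1 without combined replicate 3, and for endothelin-1 SLC25A4 without combined replicate 3. Depth limits CKM, MB and CKMT2 most in the vehicle and combined libraries, where they had few counts or 0.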
